A study of Arabidopsis thaliana with 4 samples.

Results

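The genes of the chloroplast and mitochondrial genomes of Arabidopsis thaliana are described here as they appear in polyA-selected RNA of whole seedlings. Members were the rows of the deposited gene count table with a chloroplast (ATCG) or mitochondrial (ATMG) identifier and at least 20 counts summed over the 4 libraries. There were 99 members, 82 chloroplast and 17 mitochondrial, among 133 chloroplast and 152 mitochondrial rows and 32833 rows in all. The members were selected on abundance, the count sum over both genotypes, and not on a genotype difference. A low-count row can still pass this limit mainly through the genotype in which it is higher. The mitochondrial ORF240A did so with 30 and 14 counts in the mutant against 5 and 0 in wild type. The chloroplast psbH did so in the other direction, with 7 and 1 counts in the mutant against 17 and 12 in wild type. For such rows, membership was not independent of the genotype in which they were higher. Whole seedlings were taken at 7 days from sucrose-supplemented MS medium, without treatment. The mutant, labelled MAC3BQ77A/D81A-GFP, carries a GFP-tagged MAC3B with the substitutions Q77A and D81A and had 2 libraries (replicates 1 and 3). Col-0 served as wild type, also with 2 libraries (replicates 1 and 2). MAC3B is a U-box ubiquitin ligase of a nuclear complex that works with the spliceosome. The labels do not give the promoter of the transgene, the endogenous MAC3 alleles of the line or whether its name marks 1 transformant, and no line with an unaltered MAC3B-GFP was among the samples.

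Chloroplast DNA encodes core subunits of the photosystems, the cytochrome b6f complex, the ATP synthase, the large subunit of Rubisco, an NADH dehydrogenase-like complex, its own RNA polymerase and part of its ribosome, tRNA and rRNA. The plastid-encoded RNA polymerase transcribes photosynthesis genes such as psbA and rbcL, while a nuclear-encoded polymerase of the phage type transcribes the rpoB operon. Organelle transcripts as a rule carry no long poly(A) tail, and in chloroplasts and plant mitochondria a short tail marks RNA for decay. Selection with oligo(dT) therefore recovers organelle RNA only in part, and tailed molecules or stretches of A within a transcript can be retained.

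The libraries held 23936296 and 30105517 counted fragments in the mutant and 23436163 and 24245300 in wild type, so that 3 counts correspond to 0.0996 to 0.128 CPM, counts scaled to a common library total. MAC3B (AT2G33340), whose tagged copy shares its gene's sequence, had 1147 and 947 CPM in the mutant and 156 and 162 CPM in wild type. The labels do not state separate cultures for the libraries of 1 genotype, so p-values reflect the spread among these 4 samples alone, which may be technical. Single-library values are listed by replicate number, 1 and 3 in the mutant and 1 and 2 in wild type.

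Organelle genes held a very small part of the counts of every library. Chloroplast rows held 7262 and 5530 counts in the mutant and 5715 and 7553 in wild type, which is 0.0303% and 0.0184% of the mutant libraries and 0.0244% and 0.0312% of the wild-type libraries. Mitochondrial rows held 2865 and 2909 counts in the mutant and 2175 and 2995 in wild type, or 0.0120% and 0.00966% against 0.00928% and 0.0124%. The genotypes overlapped in both organelles. The chloroplast share averaged 0.0244% ± 0.00846 in the mutant and 0.0278% ± 0.00479 in wild type (SD, n = 2 each), a ratio of 0.877 with a two-sided exact permutation p of 0.667. The mitochondrial share averaged 0.0108% ± 0.00163 and 0.0108% ± 0.00217 (SD, n = 2 each), a ratio of 1.0 with an exact permutation p of 1.0. With 6 arrangements of 4 libraries, no p under 0.333 was possible. In whole seedlings, fewer cells or organelles of a kind and less RNA per cell cannot be told apart.

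Members held 99.3% of the chloroplast counts and 10727 of the 10944 mitochondrial counts. Of the other chloroplast rows, 24 had no count in any library and 27 had 1 to 19 counts. Of the other mitochondrial rows, 97 had no count and 38 had 1 to 19. Just inside the limit were the histidine tRNA gene trnH with 20 counts, the cytochrome c synthesis gene ccsA with 24 and mitochondrial NAD7 with 25. Just outside were trnC, psaI and mitochondrial CCB206, each with 17.

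Many organelle rows have near-identical copies. A search of the chloroplast genome found a further copy for 33 rows, at 98% identity or more over most of their length, in the inverted repeat. The search needed matches of at least 50 bases, so the short exons of trnA and trnI, which also lie in both repeat copies, are not among the 33. Among the 33, 15 had no count and 14 had 1 to 19, and the 4 members were the rRNA genes rrn16S and rrn23S in both repeat copies, with 1190 counts in all. The copied protein-coding rows, such as those of rpl2, ndhB, rps7 and ycf2, held at most 11 counts each. The mitochondrial genome has near-identical sequence in the nucleus: 73.2% of the RefSeq mitochondrial sequence matched nuclear DNA over at least 50 bases at 98% identity or more, nearly all of it (72.8%) on chromosome 2. The deposited counting command sets no option for reads with several alignments, so counts of copied rows and the organelle shares built on them are uncertain. Reads that align to several copies may be missing from both. The part of these copies in the empty rows was not tested.

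Runs of A inside the coding sequence were examined because oligo(dT) can anneal to them. The sequences below come from the RefSeq copy of the Arabidopsis chloroplast genome (TAIR10.1), at the coordinates of the deposited files, where 85 of 86 chloroplast protein-coding rows end in a stop codon. They show the 2 members with the highest level per length, a window of psbA, which held the most chloroplast counts, and windows of 4 of the 6 members with runs of at least 10 A. Capitals mark runs of at least 5 A in the whole coding sequences and the longest run in the windows.
rpl32, Pt:113449-113607, plus strand, whole coding sequence: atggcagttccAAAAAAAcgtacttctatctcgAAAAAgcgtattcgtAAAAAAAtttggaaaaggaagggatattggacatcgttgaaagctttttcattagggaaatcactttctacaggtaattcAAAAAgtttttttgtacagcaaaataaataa
psbM, Pt:28707-28811, minus strand, whole coding sequence: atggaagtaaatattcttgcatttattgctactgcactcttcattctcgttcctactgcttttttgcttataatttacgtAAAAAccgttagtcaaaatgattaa
psbA, Pt:1345-1394, minus strand, part of the coding sequence: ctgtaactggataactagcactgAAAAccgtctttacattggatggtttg
rpoB, Pt:25661-25716, minus strand, part of the coding sequence: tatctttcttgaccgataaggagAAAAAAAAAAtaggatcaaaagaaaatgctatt
rpoC2, Pt:17903-17961, minus strand, part of the coding sequence: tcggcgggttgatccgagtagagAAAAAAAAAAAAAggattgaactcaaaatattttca
rpoA, Pt:78072-78131, minus strand, part of the coding sequence: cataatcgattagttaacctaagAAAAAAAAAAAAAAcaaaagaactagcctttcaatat
accD, Pt:57349-57407, plus strand, part of the coding sequence: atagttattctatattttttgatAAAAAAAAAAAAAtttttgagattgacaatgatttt

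The longest A-run of the 82 chloroplast members had a median of 5 bases and ranged from 1 to 14. Levels per length are given as CPM per kb of exon, averaged over the 4 libraries. The 13 members with a run of at least 8 A had a median level of 1.57 CPM per kb (0.242 to 15.8), and the 69 with shorter runs had a median of 3.48 (0.22 to 66.2). Across genes, the rank correlation of level with the longest run was -0.32 over the 82 members and -0.23 over the 47 protein-coding members of at least 300 bases, and with the percentage of A it was -0.056 over the 82 and 0.12 over the 47. Level per length was also lower in longer genes, with a rank correlation of -0.38 over the 82 and -0.14 over the 47, and length is part of the level. These points share libraries and operons, and the values are a description without a test. Long runs occurred in genes of high and low level. With a run of 10, atpB had 15.8 CPM per kb and rpoB had 7.42, and with a run of 14 rpoA had 3.83. With a run of 13, rpoC2 had 1.89, ycf1 0.363 and accD, which encodes a subunit of acetyl-CoA carboxylase, 0.308. The gene psbA reached 24.1 CPM per kb with no run longer than 4, but up to 12 A in 20 bases. The rank correlation of level with the most A in any 20 bases was -0.26 over the 82 and -0.083 over the 47. Only annotated exon sequence was searched. Untranslated regions, introns and neighbouring genes on the same transcript were not covered. The part of A-runs in the recovery of these transcripts was not tested.

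**Figure D1:**
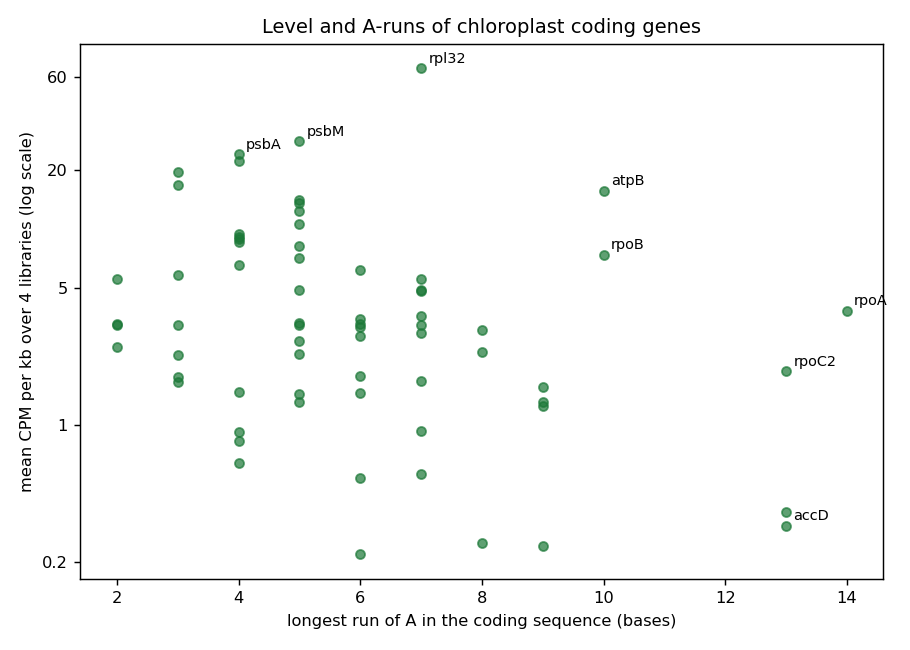
Mean level over the 4 libraries (CPM per kb of exon, log scale) of each protein-coding chloroplast member against the longest run of A in its coding sequence (bases). Members with a run of at least 8 A have a median of 1.57 CPM per kb, rpl32 stands highest at 66.2 with a run of 7, and accD lies at 0.308 with a run of 13.

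Per length, the highest chloroplast members were rpl32, for a protein of the large ribosomal subunit (66.2 CPM per kb), psbM, for a small photosystem II subunit (28.1), and psbA, for the D1 reaction centre protein (24.1). Next came atpE, for the epsilon subunit of the ATP synthase (22.3), psbI and psbK, for small photosystem II subunits (19.5 and 16.9), atpB, for the ATP synthase beta subunit (15.8), and rpl16, for another protein of the large ribosomal subunit (14.2). Of these, psbM, psbI, rpl32 and psbK are only 105 to 186 bases long, and chloroplast genes are transcribed together with their neighbours, so the level per length of a short gene is uncertain. The counting used no strand option, so reads from an antisense transcript cannot be told from those of the gene.

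Photosystem II genes held 1398 and 748 counts in the mutant and 970 and 1793 in wild type. Most came from psbA (chloroplast positions 383 to 1444, minus strand), with 731 and 278 counts in the mutant and 420 and 1073 in wild type. On the CPM scale psbA had 30.1 and 9.15 in the mutant and 18.2 and 44.8 in wild type. The highest psbA level was thus in wild-type replicate 2, the lowest in mutant replicate 3, and the genotypes overlapped. The antenna protein gene psbC (CP43) followed the same order, with 5.35 and 1.81 CPM in the mutant and 3.68 and 7.89 CPM in wild type. Its neighbour psbD, for the D2 reaction centre protein, shares 4.99% of its exon bases with psbC and had 4.07 and 1.91 CPM in the mutant and 3.81 and 4.38 CPM in wild type. The small subunit genes psbI and psbM did not share that order. The values were, for psbI, 2.39 and 1.91 CPM in the mutant and 2.21 and 2.17 CPM in wild type, and for psbM 3.99 and 2.44 CPM in the mutant and 3.59 and 1.79 CPM in wild type. Both mutant libraries lay below both wild-type libraries for psbF, a subunit of cytochrome b559, with 5 and 5 counts in the mutant and 12 and 16 in wild type. The same held for psbH, with 7 and 1 counts in the mutant and 17 and 12 in wild type, and for psbZ, with 10 and 2 counts in the mutant and 17 and 13 in wild type.

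The Rubisco large subunit gene rbcL (positions 54958 to 56397, plus strand) had 466 and 192 counts in the mutant and 258 and 582 in wild type, or 19.2 and 6.32 CPM against 11.2 and 24.3 CPM. Its order over the libraries was that of psbA. Photosystem I genes held 469 and 301 counts in the mutant and 317 and 450 in wild type. The reaction centre genes psaB and psaA had 8.27 and 4.35 CPM and 8.19 and 3.36 CPM in the mutant, against 6.36 and 9.81 CPM and 5.50 and 7.22 CPM in wild type. The small subunit gene psaJ had higher levels in both mutant libraries, with 2.35 and 2.04 CPM in the mutant and 1.43 and 1.54 CPM in wild type. Cytochrome b6f genes held 203 and 182 counts in the mutant and 216 and 255 in wild type. Among them petA, for cytochrome f, had 57 and 73 counts in the mutant and 92 and 75 in wild type, without overlap on the CPM scale (2.35 and 2.40 against 3.98 and 3.13).

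ATP synthase genes held 1377 and 1306 counts in the mutant and 1102 and 1254 in wild type, the largest class together with photosystem II. The beta subunit gene atpB was among the steadiest members, with 25.7 and 22.6 CPM in the mutant and 21.3 and 24.8 CPM in wild type. Its downstream neighbour atpE had 9.59 and 6.12 CPM in the mutant and 9.87 and 10.1 CPM in wild type, and the alpha subunit gene atpA had 8.56 and 6.12 CPM in the mutant and 6.58 and 8.60 CPM in wild type. The NADH dehydrogenase-like complex was low throughout, with 153 and 121 counts over 9 members in the mutant and 101 and 176 in wild type. Its member with most counts, ndhK, had 31 and 26 counts in the mutant and 30 and 34 in wild type, and ndhJ had 16 and 37 counts in the mutant and 13 and 9 in wild type.

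The 4 subunits of the plastid-encoded RNA polymerase held 1108 and 1189 counts in the mutant and 1177 and 1094 in wild type. The beta subunit gene rpoB (positions 23111 to 26329, minus strand) had 576 and 667 counts in the mutant and 594 and 578 in wild type, or 23.7 and 22.0 CPM against 25.7 and 24.1 CPM. The mutant libraries lay just below the wild-type libraries, and the highest library exceeded the lowest by 1.17-fold, against 4.89-fold for psbA. For rpoC1 the values were 9.71 and 8.49 CPM in the mutant and 12.6 and 8.64 CPM in wild type, and for rpoC2 they were 8.15 and 5.83 CPM in the mutant and 8.57 and 8.72 CPM in wild type. The alpha subunit gene rpoA had 4.03 and 2.86 CPM in the mutant and 4.11 and 4.17 CPM in wild type.

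Ribosomal protein genes of the large subunit held 746 and 556 counts in the mutant and 620 and 588 in wild type, and those of the small subunit held 395 and 233 in the mutant and 279 and 318 in wild type. The counts of rpl32 were 296 and 229 in the mutant and again 296 and 229 in wild type, or 12.2 and 7.54 CPM in the mutant and 12.8 and 9.56 CPM in wild type. The small subunit gene rps3 had 120 and 59 counts in the mutant and 77 and 108 in wild type. The gene rps15 had 18 and 1 counts in the mutant and 20 and 1 in wild type; it was singled out after its values were seen. The rRNA genes together held 309 and 212 counts in the mutant and 226 and 443 in wild type, of which rrn23S (ATCG01180) had 146 and 86 in the mutant and 88 and 198 in wild type. The 9 tRNA genes held 107 and 80 counts in the mutant and 79 and 113 in wild type. The valine tRNA gene trnV led them with 23 and 23 counts in the mutant and 13 and 17 in wild type.

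Among the remaining chloroplast members, clpP, for a protease subunit, had 139 and 112 counts in the mutant and 124 and 163 in wild type. The envelope membrane protein gene cemA had 108 and 113 counts in the mutant and 105 and 104 in wild type, and the maturase gene matK had 50 and 48 in the mutant and 42 and 60 in wild type. The long gene ycf1 had 79 and 36 counts in the mutant and 27 and 52 in wild type, and ycf3, for a photosystem I assembly factor, had 29 and 16 in the mutant and 11 and 8 in wild type. The gene accD had 18 and 16 counts in the mutant and 0 and 13 in wild type. The unnamed row ATCG00290 had 19 and 3 counts in the mutant and 3 and 19 in wild type.

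**Figure D2:**
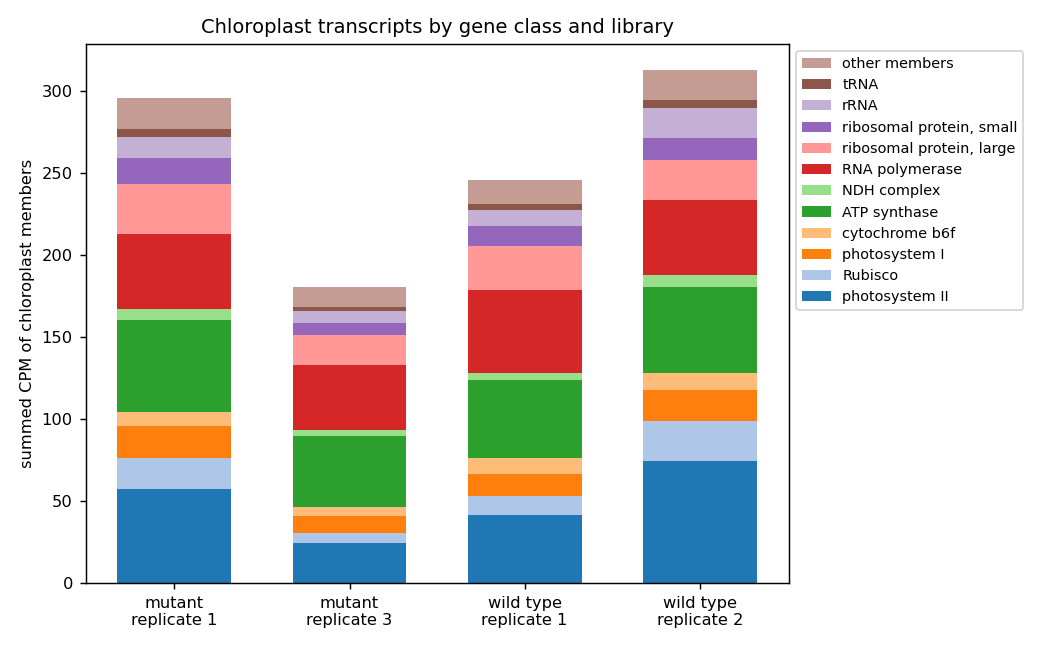
Summed CPM of the chloroplast members by gene class, one stacked bar per library, mutant replicates left and wild-type replicates right. Photosystem II contributes 57.5 and 24.6 CPM in the mutant and 42.0 and 74.8 CPM in wild type, while RNA polymerase genes contribute 45.6 and 39.1 CPM in the mutant and 50.9 and 45.7 CPM in wild type.

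The make-up of the chloroplast RNA differed between libraries of 1 genotype. Photosystem II genes made up 19.3% and 13.5% of chloroplast counts in the mutant and 17.0% and 23.7% in wild type, whereas RNA polymerase genes made up 15.3% and 21.5% in the mutant and 20.6% and 14.5% in wild type. The Rubisco gene followed photosystem II, at 6.42% and 3.47% in the mutant and 4.51% and 7.71% in wild type. Photosystem I genes made up 6.46% and 5.44% in the mutant and 5.55% and 5.96% in wild type. The other photosynthesis classes did not follow photosystem II: ATP synthase genes made up 19% and 23.6% in the mutant and 19.3% and 16.6% in wild type, and cytochrome b6f genes 2.80% and 3.29% in the mutant and 3.78% and 3.38% in wild type. Mutant replicate 1 and wild-type replicate 2 thus held larger shares of photosystem and Rubisco transcripts, and mutant replicate 3 and wild-type replicate 1 held larger shares of polymerase, ATP synthase and cytochrome b6f transcripts.

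These differences within a genotype exceeded counting error for many photosynthesis genes. The psbA level was 3.29 times as high in mutant replicate 1 as in mutant replicate 3 (95% exact interval 2.86 to 3.79), and 2.46 times as high in wild-type replicate 2 as in replicate 1 (2.20 to 2.77). For rbcL the ratios were 3.03 (2.56 to 3.61) in the mutant and 2.18 (1.88 to 2.53) in wild type, and for psbC they were 2.95 and 2.14. The polymerase gene rpoB had ratios of 1.08 (0.964 to 1.21) in the mutant and 0.939 (0.836 to 1.05) in wild type. The intervals cover counting error only, and the direction of the ratios was set after the totals of the libraries had been seen.

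Of the 47 members with at least 100 counts, 42 were higher in mutant replicate 1 than in mutant replicate 3, 35 were higher in wild-type replicate 2 than in replicate 1, and 32 (68.1%) were both. Among 18971 nuclear genes with at least 100 counts, 4694 (24.7%) were both. The direction of the ratios was set after the totals had been seen, and the members are part of the organelle totals. A higher share in members than in nuclear genes is therefore in part built in. Both intervals lay above 1 for 16 members, namely psbA, psbB, psbC, psbE, psaA, psaB, petB, petD, rbcL, atpA, atpB, both rrn23S copies, ycf1 and the mitochondrial ATMG00020 and ORF107A. In wild type the interval lay below 1 for rpoC1, psbM and rpl32. Over the 15 such members of the photosystems, the cytochrome b6f complex and Rubisco, the median ratio was 1.90 in the mutant and 1.51 in wild type. Over the 4 RNA polymerase members it was 1.27 in the mutant and 0.98 in wild type. The rank correlation of the ratios over the 47 members was 0.47, a description over genes that share libraries and operons. Mutant replicate 3 had the lowest level of 35 of the 47 (74.5%), against 4364 of the 18971 nuclear genes, and it was also the library with most counts in all. Wild-type replicate 2 had the highest level of 25 (53.2%), against 23.4%. The part of depth, growth or RNA handling in these differences was not tested.

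**Figure D3:**
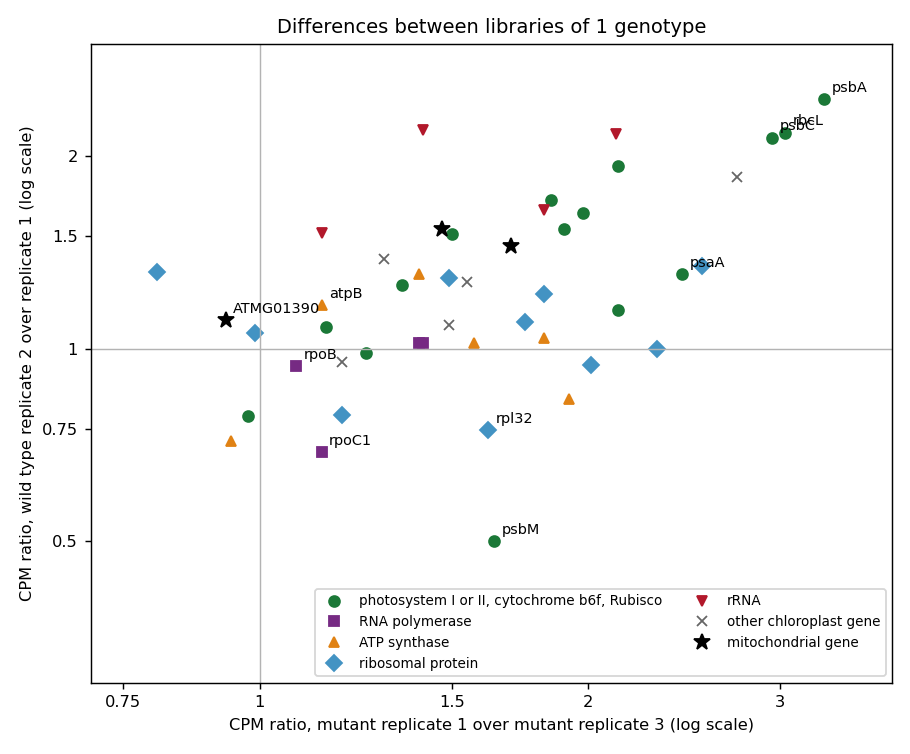
CPM ratio between the libraries of each genotype for the 47 organelle genes with at least 100 counts, mutant replicate 1 over 3 on the horizontal axis and wild-type replicate 2 over 1 on the vertical axis (both log scales), 1 point per gene with its class as symbol. The genes psbA, rbcL and psbC lie far from 1 on both axes, with ratios of 2.95 to 3.29 in the mutant and 2.14 to 2.46 in wild type, while rpoB lies close to 1 on both.

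The genotype comparison was made with edgeR's quasi-likelihood test over all genes, with Benjamini-Hochberg adjustment at 0.05. The filter on low counts passed 84 of the 99 members, 72 chloroplast and 12 mitochondrial. The 15 others were not tested. None of the 84 was called, where 3.01% of all 20483 genes tested were called (617). Without adjustment, 3 of the 84 had p under 0.05, against 14.7% of all genes. DESeq2 took in all 99 members and gave an adjusted p for 44 of them. It called 0, and 2 of the 99 had an unadjusted p under 0.05. In the authors' deposited DESeq2 table, 9 of the 99 members have an adjusted p, the smallest being 0.352, and 2 have an unadjusted p under 0.05. Log2 fold changes (mutant over wild type) were negative for 63 members and positive for 21, with a median of -0.25 against 0.000394 over all genes tested. Scaling each organelle to its own total brought the median to -0.03. The genotypes did not overlap for 25 of the 84, with the mutant lower in 19 and higher in 6, where 44.7% of all genes tested did not overlap. The highest library exceeded the lowest by a median of 2.42-fold in the members, against 1.28-fold over all genes tested, with no matching on count.

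For psbA and rbcL the genotype difference was smaller than the spread between libraries of a genotype. The log2 fold change of psbA was -0.70 (SE 0.349, adjusted p = 0.360 by edgeR), with means of 19.6 ± 14.8 CPM in the mutant and 31.5 ± 18.8 CPM in wild type (SD, n = 2 each). For rbcL it was -0.50 (SE 0.333, adjusted p = 0.535 by edgeR), with means of 12.7 ± 9.09 CPM in the mutant and 17.7 ± 9.28 CPM in wild type. The steadier genes had small estimates, -0.13 (SE 0.119) for rpoB and 0.07 (SE 0.126) for atpB, with edgeR adjusted p-values of 0.695 and 0.868. Among chloroplast members the lowest log2 fold changes were those of psbH (-2.00, SE 0.952), psbF (-1.67, SE 0.856) and psbZ (-1.47, SE 0.882), and the highest were those of accD (1.19, SE 0.945), ycf3 (1.06, SE 0.726) and ndhJ (1.01, SE 0.677). The edgeR adjusted p-values of these 6 genes lay between 0.337 and 0.621. All but psbF rest on single libraries: with each library left out in turn, the log2 fold change ranged from -4.04 (without mutant replicate 1) to -1.09 (without mutant replicate 3) for psbH and from -3.19 to -0.63 for psbZ under the same omissions. That of ycf3 was 0.38 without mutant replicate 1 and 1.55 without mutant replicate 3, and that of ndhJ was 1.37 and 0.48. That of accD was 0.21 without wild-type replicate 1 and 7.04 without wild-type replicate 2, where the wild type left had no count, so that the larger value has no fixed size. Over all members tested, 63 of 84 log2 fold changes were negative. By class, they were negative for 11 of 12 photosystem II members, all 5 tested cytochrome b6f members, all 4 RNA polymerase members and all 4 rRNA members. They were positive for 4 of 6 ATP synthase members. The rRNA members are rrn16S and rrn23S in both repeat copies, and genes of a class can share an operon, so these signs are not independent. None of these members passed the test, and rpoB turned positive (0.15) when the chloroplast rows were scaled to their own total.

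Single libraries decided the size of several edgeR estimates. Without mutant replicate 1, log2 fold changes were -1.78 for psbA, -0.90 for psaB, -1.49 for rbcL and -1.09 for rrn23S ATCG01180. Without mutant replicate 3 they were -0.07 for psbA, 0.38 for ATMG00020 and 3.47 for ORF240A. That of psbA was -1.21 without wild-type replicate 1 and 0.0958 without wild-type replicate 2. A genotype left with 1 library has no spread of its own, so p-values of such fits do not measure it. With no filter on low counts, psbA and rbcL were called lower, with edgeR adjusted p-values of 3.66e-06 and 0.0349. The genotypes overlapped for both genes, and the SE of psbA was 0.126 there against 0.349 with the filter.

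**Figure D4:**
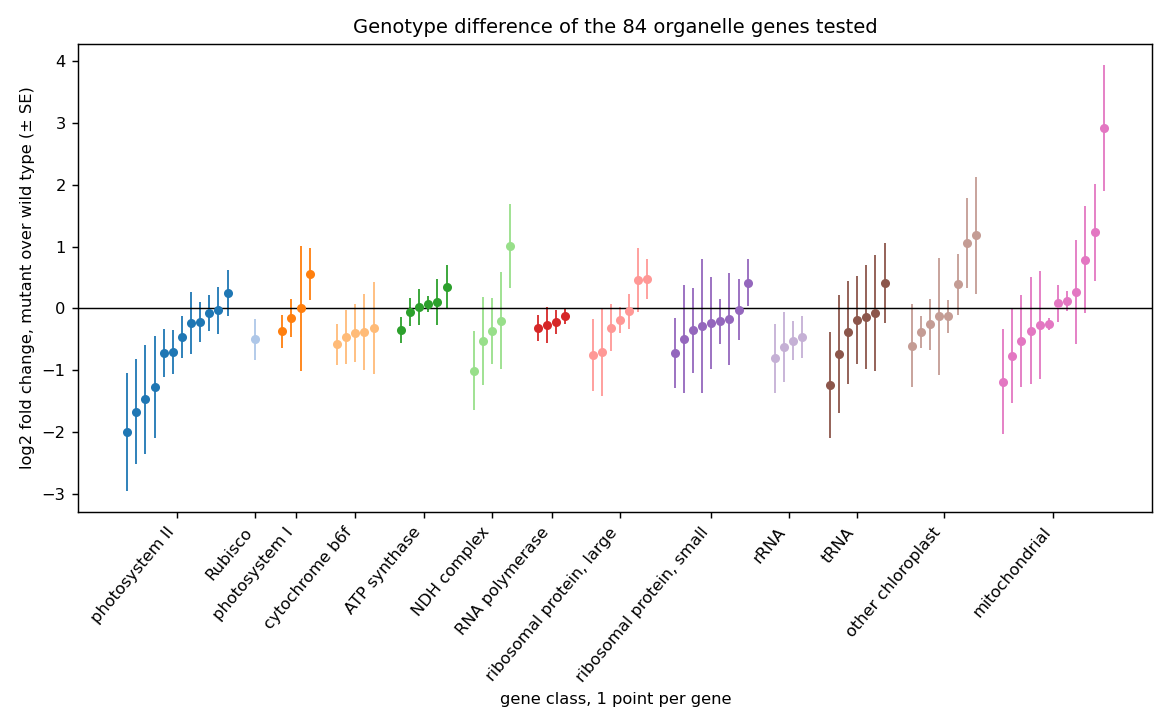
Log2 fold change (mutant over wild type, edgeR) with its standard error for the 84 organelle genes tested, 1 point per gene, sorted within its class. Most points lie below 0 (63 of 84), the bars of low-count genes are wide, and no gene passes an adjusted p of 0.05.

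Mitochondrial RNA was dominated by a pair of rows that the files do not name. ATMG00020 and ATMG01390 together held 87.7% and 89.2% of mitochondrial counts in the mutant and 89.6% and 88.4% in wild type. ATMG00020 (exon length 2568 bases) had 65.2 and 44.4 CPM in the mutant and 39.4 and 60.7 CPM in wild type. ATMG01390 had 38.3 and 41.1 CPM in the mutant and 44.9 and 49.8 CPM in wild type, so that both mutant libraries lay below both wild-type libraries by a small margin. Its log2 fold change was -0.25 (SE 0.0989, adjusted p = 0.211 by edgeR). That of ATMG00020 was 0.12 (SE 0.160, edgeR adjusted p = 0.794). The exon length of ATMG01390, 1935 bases, equals that of rrn18, the small-subunit rRNA gene in the RefSeq mitochondrial annotation, and of no other gene there. The mitochondrial sequence in RefSeq differs from that of the deposited files. It served for that length and for the search for nuclear copies, and no member's sequence or position was taken from it.

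The other mitochondrial members were sparse. The open reading frame ORF107A had 135 and 99 counts in the mutant and 78 and 117 in wild type. Per length it followed ATMG01390 (22.5 CPM per kb) and ATMG00020 (20.4) with 13.2 CPM per kb. ORF107A (positions 11918 to 12241, plus strand) has 324 bases and lies near ATMG00020 (8848 to 11415, minus strand). Without a strand option in the counting, reads from beyond the end of ATMG00020 cannot be told from those of ORF107A. The levels of the remaining members were 1.15 CPM per kb or less, led by ORF111D (1.15), ORF149 (1.14) and NAD1 (1.08), with ORF107H, RPL16 and NAD9 below them. ORF240A had 30 and 14 counts in the mutant and 5 and 0 in wild type, without overlap. Its log2 fold change was 2.91 (SE 1.02), with an edgeR adjusted p of 0.145, the smallest among the members tested. It was 1.93 without wild-type replicate 2 and 7.46 without wild-type replicate 1, where the wild type left had no count and the value has no fixed size. The cytochrome c oxidase gene COX1 had 15 and 21 counts in the mutant and 5 and 8 in wild type, again without overlap, and COX2 had 23 and 14 in the mutant and 1 and 18 in wild type. Their log2 fold changes were 1.24 (SE 0.784) and 0.79 (SE 0.866), with edgeR adjusted p-values of 0.505 and 0.747. Among the 12 mitochondrial members tested, the lowest were those of ORF149 (-1.18), NAD9 (-0.77), for a complex I subunit, and RPS3 (-0.53), for a ribosomal protein. ORF149 had 1 and 17 counts in the mutant and 15 and 19 in wild type, and its log2 fold change was -3.97 without mutant replicate 3 and -0.36 without mutant replicate 1. Outside the test for low counts, ORF111D had 7 and 1 counts in the mutant and 9 and 20 in wild type, and NAD7 had 3 and 17 in the mutant and 0 and 5 in wild type. The authors' deposited table gives them log2 fold changes of -1.97 and 1.71 with no adjusted p. RPS3 had 16 and 9 counts in the mutant and 10 and 22 in wild type, and shares 8.02% of its exon bases with RPL16. The ATP synthase gene ATP6-2 had 18 and 3 counts in the mutant and 13 and 10 in wild type, and the maturase gene MATR had 6 and 9 in the mutant and 1 and 9 in wild type.

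**Figure D5:**
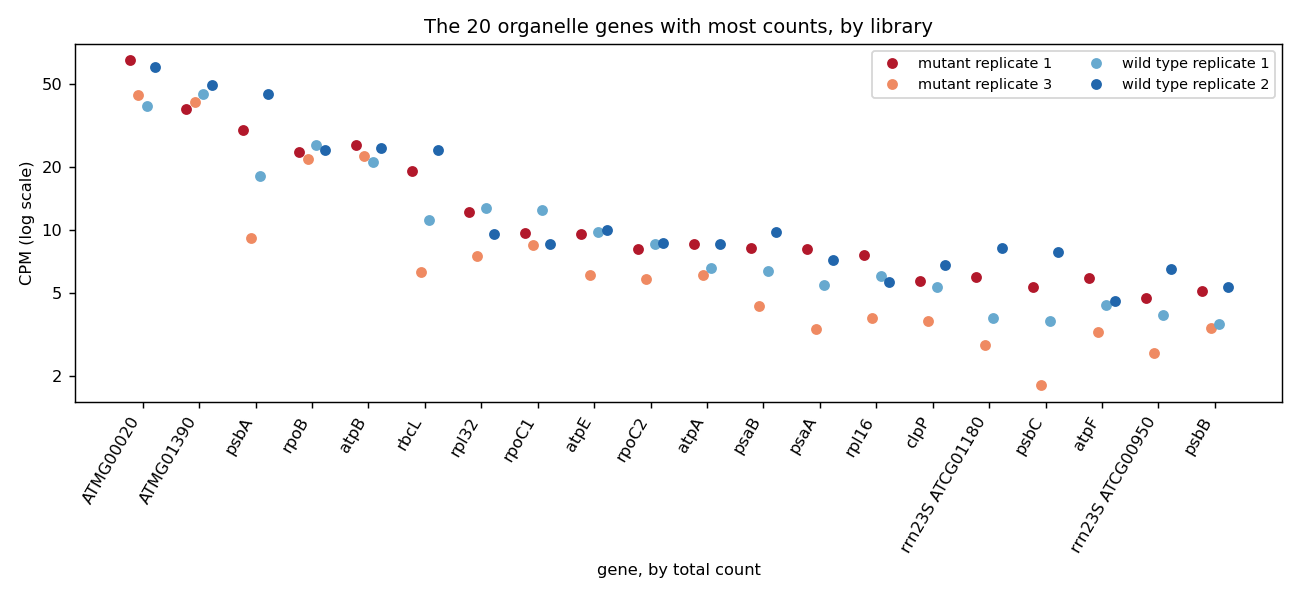
CPM (log scale) of the 20 organelle genes with most counts, in order of total count, with the mutant replicates drawn left of the wild-type replicates for each gene. The mitochondrial ATMG00020 and ATMG01390 lead, psbA spreads from 9.15 to 44.8 CPM, and rpoB stays between 22.0 and 25.7 CPM.

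The deposited intron score, a coverage signal per intron, was a further measurement on the same RNA. Its columns are labelled by genotype and a number of their own, so each score belongs to a genotype but not to a known library. Most organelle introns are of group II, a self-splicing type, and are removed with the help of many proteins, apart from the nuclear spliceosome. Of 79373 introns listed, 23 were chloroplast and 15 mitochondrial, and 18 of these lay in 14 members. The median of the mean score was 151 for chloroplast introns, 51.3 for mitochondrial introns and 0.417 for nuclear introns. The 90th percentile of nuclear introns, 47.6, was exceeded by 22 of the 23 chloroplast introns and 8 of the 15 mitochondrial introns. Mean scores of 0 began at rank 41391 of the 79373 introns, so the nuclear median lies close to the introns at 0. The scaling of the score is not stated, and introns were not matched on length. These values are therefore no measure of how much of an intron is retained.

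The intron of trnV scored 2480 and 1620 in the mutant columns and 2280 and 1850 in the wild-type columns, rank 46 of all introns. The gene's exons held 13 to 23 counts per library. They have only 75 bases, against 598 in the intron, and the scaling of the score is not stated. The score and the counts therefore cannot be compared directly. The rpl16 intron scored 526 and 212 in the mutant and 289 and 306 in wild type, the petB intron 162 and 104 against 156 and 180, and the atpF intron 185 and 138 against 202 and 149. In mitochondria the COX2 intron scored 251 and 249 in the mutant and 231 and 191 in wild type. Introns of the inverted repeat carried close to the same score in both copies. For 1 copy of trnA the scores were 502 and 730 in the mutant and 625 and 761 in wild type. For the other copy they were 502 and 740 against 628 and 756. Neither copy of trnA had a count on its exons, which have 74 bases against 800 in the intron. Genotypes did not overlap for 3 of the 23 chloroplast introns, all lower in the mutant. They did not overlap for 5 of the 15 mitochondrial introns, of which 3 were higher. Of nuclear introns 11.4% did not overlap, a share not matched on score. Introns at 0 in every column count as overlapping, and mean scores of 0 began at rank 41391 of the 79373 introns listed. The shares therefore cannot be compared directly. The chloroplast cases were 2 copies of the rps12 intron, which hold close to the same scores, and the rps16 intron. No test was made on the intron scores.

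Nuclear genes that act on organelle RNA were read from lists of transcription, editing, processing, decay and splicing factors, 60 genes in all. Of the 59 tested, edgeR called 4 lower and 0 higher in the mutant, where 1.33% of all genes tested were called lower and 1.68% higher. All 4 encode proteins of chloroplasts or of chloroplasts and mitochondria. The RNA-binding protein gene CP29 (AT3G53460) had 328 and 318 CPM in the mutant and 441 and 426 CPM in wild type, a log2 fold change of -0.42 (SE 0.0701, edgeR adjusted p = 0.00125). The endoribonuclease gene CSP41A (AT3G63140) had 256 and 297 CPM in the mutant and 357 and 347 CPM in wild type (-0.35, SE 0.0781, edgeR adjusted p = 0.0163), and 25.7% of its exon bases are shared with another gene. PTAC6 (AT1G21600), for a protein bound to the plastid-encoded RNA polymerase, had 46.6 and 48.8 CPM in the mutant and 58.8 and 66.4 CPM in wild type (-0.39, SE 0.0937, edgeR adjusted p = 0.0240). The exoribonuclease gene EMB2730 (AT5G02250), for RNR1, had 41.8 and 41.7 CPM in the mutant and 49.9 and 57.8 CPM in wild type (-0.37, SE 0.0982, edgeR adjusted p = 0.0451). Without wild-type replicate 1 none of the 4 was called (smallest adjusted p 0.0959), and without wild-type replicate 2 only CP29 was (0.0451). DESeq2 and scaling by library totals each called the first 3 and not EMB2730.

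The list of plastid transcription factors held 21 tested genes, of which 20 had negative log2 fold changes (median -0.15) and 1, PTAC6, was called. Its summed level was 921 and 924 CPM in the mutant and 1022 and 1031 CPM in wild type. All 12 genes for plastid RNA processing and decay had negative log2 fold changes (median -0.15), and 3 were called. The 9 tested editing factors had positive values in 8 cases (median 0.14). The 7 factors for plastid intron splicing had a median of -0.14, the 6 for mitochondrial splicing -0.04, the 4 for mitochondrial processing and decay 0.25 and the 2 mitochondrial RNA polymerase genes 0.03. The lists share members. EMB2730, called lower, is in both the plastid and the mitochondrial list for processing and decay. AT5G15700 is in the plastid transcription list and is also 1 of the 2 mitochondrial RNA polymerase genes. The median over all genes tested was 0.000394.

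Markers of shoot and root were read beside these results. The 7 shoot markers, nuclear photosynthesis genes, summed to 34810 and 36130 CPM in the mutant and 38980 and 37990 CPM in wild type, and edgeR called 2 of them lower in the mutant, RBCS3B (-0.27, adjusted p = 0.0193) and PSAD-1 (-0.27, adjusted p = 0.0423). The 10 root markers summed to 386 and 394 CPM in the mutant and 402 and 373 CPM in wild type. Log2 fold changes were negative for 6 of the 7 shoot markers (median -0.151) and positive for 7 of the 10 root markers (median 0.175). None of the root markers passed an adjusted p of 0.05 by edgeR, and 4 had an unadjusted p under 0.05. Of these, AT5G43350, SHR and CASP1 were higher in the mutant, and AT5G47450, the root marker with the highest level, was lower. Within a genotype the shoot sums differed by far less than psbA or rbcL did, and neither sum was higher in mutant replicate 1 than in mutant replicate 3. The part of shoot and root make-up in the differences between libraries was not tested.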

How the data were processed

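PolyA-selected mRNA of 4 whole-seedling samples was measured, 2 mutant and 2 wild type. The deposited gene values are raw counts of fragments. Per the file headers, featureCounts 2.0.1 counted read pairs on the exons of Ensembl Plants release 49 (TAIR10) and was given no option for strand or for reads with several alignments. Per the submitters' processing notes DESeq2 1.30.1 was used, as were STAR 2.7.9a and HISAT2 2.2.0, both aligners. Which of them made the counted alignments is not stated there. Exon length, an other kind of value, was deposited beside the counts. The authors' deposited DESeq2 table holds a mean scaled count (a signal), the log2 fold change, the Wald statistic (a score) and p-values. The authors also deposited an intron score per intron, a coverage signal whose scaling is not stated, and 4 of its per-sample log2 columns were not used here. The retained-intron table was not used here.

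All 32833 rows of counts entered edgeR 4.0.16 in R 4.3.3 (filterByExpr, TMM, glmQLFit and glmQLFTest, genotype as the only term, all 4 libraries). This fit gave the CPM values and fold changes, and an adjusted p under 0.05 is a call. The common biological coefficient of variation was 0.0971. The procedure was tested on simulated data. Ratios between libraries of 1 genotype carry exact conditional 95% intervals for counts. A-runs were read from the RefSeq chloroplast sequence, and copies were searched from the RefSeq chloroplast and mitochondrial sequences, with blastn 2.17.0 and Python 3.11.15 (numpy 2.4.6, pandas 2.3.3, scipy 1.17.1), and figures used matplotlib 3.10.9. Symbols came from RefSeq, by position, for 81 chloroplast members and from the authors' deposited table for 15 mitochondrial members. Floors of 3 counts and all intervals cover counting error only.

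The members and gene lists were chosen with earlier results of these data known. Named genes were members past the threshold, the 8 highest per length of each organelle, the member with most counts of each class, the 3 highest and 3 lowest fold changes of each organelle, the 3 rows on either side of the count limit and called genes of the nuclear lists; genes named beside these, for the other subunits of a complex or for the spread between libraries, were chosen after their values were seen. Alternatives were each library left out in turn, scaling to the organelle total, DESeq2 1.42.0, RLE size factors, library totals and other low-count filters. Members without an adjusted p in DESeq2, which gave it for 44 of the 99, could not be called there.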

Additional observations from a re-analysis of the deposited data

How the results depend on the processing

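No paired analysis was possible because the genotypes share only replicate number 1. The count columns number the same wild-type libraries 2 and 3, and by that numbering they share only number 3. The share of counts from chloroplast genes, mutant over wild type, lay between 0.661 and 1.09 with each library left out in turn, and that from mitochondrial genes between 0.876 and 1.17. The number of members called, 0 by edgeR, was 2 with no filter beyond a count sum of at least 1, and 0 to 5 with each library left out, and it was 0 under RLE factors, library totals, the other filters, organelle scaling and DESeq2. Over all genes the 617 calls became 1090 with no filter and 135 to 1848 with each library left out. Of the calls, 55.9% were higher in the mutant, and 72.3% were under library totals. The 4 calls among nuclear genes of organelle RNA metabolism became 0 to 10 with each library left out. Leaving out a library left its genotype with 1 sample, which was assumed to vary like the other genotype.

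The log2 fold changes of several named members changed sign, and none of the values with a changed sign was a call. Scaling to the organelle total gave 0.0122 for rpl32, 0.225 for psbI, 0.0384 for psbK, 0.141 for rpl16, 0.135 for cemA, 0.0173 for matK, 0.146 for rpoB and 0.0533 for ATCG00290, and library totals gave 0.00504 for psbI. With each library left out, the values ranged as follows. They were -0.568 to 0.123 for rpl32, -0.17 to 0.83 for psbM, -1.78 to 0.0958 for psbA, -0.196 to 0.123 for psbI and -0.0368 to 0.183 for atpB. Further ranges were -0.626 to 0.379 for rpl16, -0.896 to 0.0295 for psaB, -1.01 to 0.33 for rps3, -1.09 to 0.202 for rrn23S ATCG01180 and -1.49 to 0.177 for rbcL. Those of the next genes were -2.18 to 1.68 for ATCG00290, -0.495 to 0.955 for ycf1, -0.176 to 0.472 for ATMG00020, -0.342 to 0.424 for ORF107A and -1.86 to 0.42 for mitochondrial RPL16. The last were -0.11 to 3.87 for COX2, -2.25 to 0.591 for ATP6-2 and -1.18 to 0.12 for mitochondrial RPS3. The cause was not tested.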
